A study of Mus with 4 samples.

Results

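The genes of fatty acid oxidation and fatty acid activation were followed through 2 lists of m6A peaks from interscapular brown adipose tissue (iBAT). The set holds 39 genes, chosen by name for their role in the pathway, and 36 of them carried at least 1 listed peak, among 11431 Ensembl genes with a peak in either list. The *Wtap* flox/flox list held 64 peaks on 31 of these genes, of 18400 peaks in all, and the *Wtap*-BKO list held 65 peaks on 32 of them, of 18693. *Echs1*, *Acaa2* and *Acsl4* had no listed peak in either genotype.

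MeRIP-seq captures fragmented poly(A)+ RNA with an antibody against N6-methyladenosine and sequences the immunoprecipitate (IP) beside its input. There were 4 sequenced samples, an IP and an input from 8-week-old C57BL/6 mice carrying *Wtap* flox/flox alleles, and the same pair from BKO mice (*Wtap* flox/flox with *Ucp1*-iCre), all fed normal chow, and each sample was a pool of 8 mice. Both genotypes carry the floxed *Wtap* alleles. iCre is expressed together with *Ucp1* and removes the floxed exon there, so cells of the depot that do not express *Ucp1* keep *Wtap*. *Wtap* itself had 4 listed peaks in each genotype, and since peaks give no transcript level, its loss was not checked here. Each genotype was a single pool, which leaves the variation among mice unmeasured and allows no test between genotypes, and the 95% Wilson intervals given with shares cover counting error among peaks and nothing else. Read depth is not given with the lists, so a peak missing from a list means that none passed the authors' threshold there.

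Fatty acids are activated to acyl-CoA by acyl-CoA synthetases and carried into mitochondria by the carnitine shuttle. There the β-oxidation cycle shortens them through dehydrogenation, hydration, a second dehydrogenation and thiolysis, and electrons pass from the acyl-CoA dehydrogenases through the electron transfer flavoprotein to the respiratory chain. Peroxisomes shorten very long and branched chains first. This pathway supplies much of the fuel that brown adipocytes burn for heat. WTAP is a regulatory subunit of the METTL3 and METTL14 methyltransferase complex, whose mark is known to be dense around stop codons and in the 3′ part of messages. Antibodies against m6A also bind m6Am, a modified nucleotide next to the cap, so a peak at the start of a transcript can hold either mark, and which one was present was not tested here.

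By presence alone the genes were nearly balanced between genotypes. Peaks in both lists were found for 27 genes. *Eci1*, *Slc27a2*, *Acot2* and *Mlycd* had peaks in the flox/flox list alone, which is 4 of 36 genes (11.1%) against 15% of all genes with a peak. *Hadhb*, *Eci2*, *Acaa1a*, *Pex5* and *Acsl3* had peaks in the BKO list alone, 5 of 36 (13.9%) against 14.9% of all genes. Both shares lie near those of the whole lists.

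A peak was called matched if any peak of the other list overlapped it by 1 exonic base or more, strand included. Of the 64 flox/flox peaks, 39 were matched (60.9%, interval 48.7% to 71.9%), against 67.8% of all flox/flox peaks. Of the 65 BKO peaks, 41 were matched (63.1%, interval 50.9% to 73.8%), against 68% of all BKO peaks. At least 1 unmatched flox/flox peak was found on 16 of 31 genes (51.6%, against 46.1% of all genes in that list), and at least 1 unmatched BKO peak on 19 of 32 genes (59.4%, against 47.7%). The peaks of *Cpt1a*, *Cpt1b*, *Acads*, *Hadh*, *Decr1*, *Acot13* and *Acacb* were matched throughout, in both directions.

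**Figure D1:**
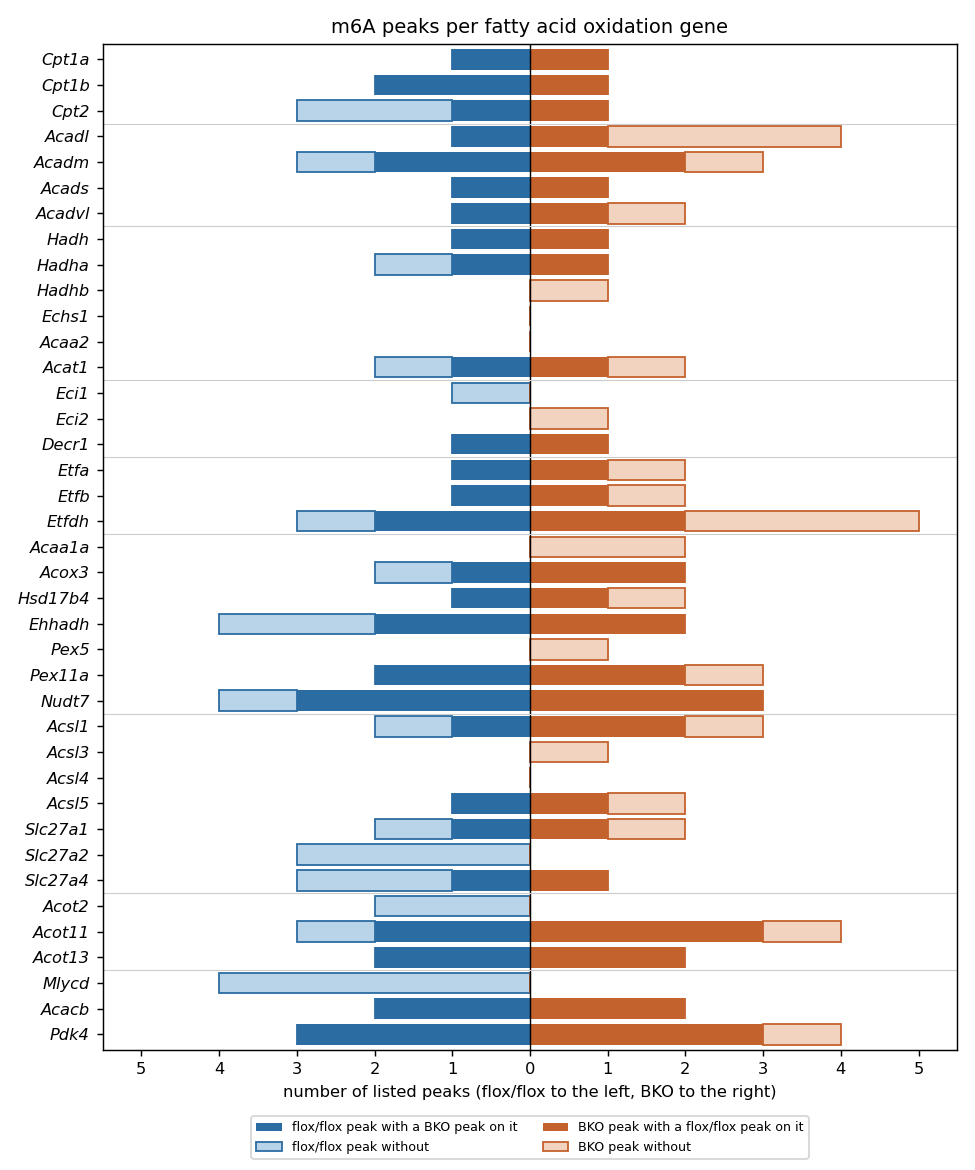
Number of listed m6A peaks (horizontal axis) on each of the 39 genes, grouped by role, with flox/flox peaks to the left of 0 and BKO peaks to the right. Dark bars are peaks with a peak of the other list on them and pale bars are peaks without one, and 27 genes have bars on both sides.

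The unmatched peaks of the 2 genotypes were compared by strength. Strength is given here as the share of a peak's own list that has a weaker false discovery rate (FDR), and single peaks are described by their log10 FDR, which is more negative for stronger peaks. The log10 FDR values of the 2 lists share no scale, so unlike values can go with nearly equal ranks. Of 27 flox/flox peaks stronger than 80% of their list, 9 had no BKO peak on them (33.3%, against 9.41% of all flox/flox peaks of that strength). Of 22 BKO peaks stronger than 80% of their list, 1 had no flox/flox peak on it (4.55%, against 2.47%). The cut at 80% was not among the planned comparisons, and no other cut was compared. The 9 flox/flox peaks lay on *Acadm*, *Acsl1*, *Cpt2*, *Slc27a1*, *Hadha*, *Nudt7*, *Mlycd*, *Slc27a2* and *Acot11*, and the BKO peak lay on *Acadl*. The unmatched BKO peaks had low fold enrichments and most were spliced. Their median fold enrichment of IP over input was 1.52, against 4.36 for all unmatched BKO peaks. By FDR their median strength was 44.05%, against 25.9% for all unmatched BKO peaks, and 10 of 24 were stronger than the median of their list. Of these peaks 15 of 24 were split over 2 or more exonic blocks (62.5%, interval 42.7% to 78.8%), against 23.7% of all unmatched BKO peaks. Of the 25 unmatched flox/flox peaks, 2 were spliced (8%), near the 9.94% of all unmatched flox/flox peaks.

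Peaks were next described by position along the gene. A peak was assigned to an end of its gene when its middle exonic base lay within 1000 bp of that end in RefSeq (GRCm38.p6). The split into 5′ and 3′ ends was chosen after the values had been seen. Of 20 flox/flox peaks at 5′ ends, 17 were matched (85%, interval 64.0% to 94.8%), whereas of 16 at 3′ ends, 6 were matched (37.5%, interval 18.5% to 61.4%). Between the ends lay 28 flox/flox peaks, of which 16 were matched (57.1%, interval 39.1% to 73.5%). Of the 25 unmatched flox/flox peaks, 12 thus lay between the ends, 10 at 3′ ends and 3 at 5′ ends. In the BKO list 16 of 20 peaks were matched at 5′ ends, 18 of 34 between and 7 of 11 at 3′ ends. Shares over all flox/flox peaks took only peaks with their middle base inside a gene spanning at least 3000 bp. Of these, 71.1% were matched at 5′ ends, 70.6% between and 62.1% at 3′ ends. The genes' own peaks were not limited in this way, and their 5′ peaks include *Hadha* and *Slc27a2* peaks centred outside the RefSeq span. The *Slc27a2* peaks were unmatched, so the 5′ shares compared are of unlike sets. The limit also holds for the other shares by end over all peaks and pairs. With those outside peaks kept, the interval of the genes' 5′ share takes in the 5′ share of all peaks. The interval of their 3′ share ends just below the 3′ share of all peaks. That gap depends on how the end is set. With any exonic base within the window, 8 of 18 flox/flox peaks at 3′ ends were matched (44.4%, interval 24.6% to 66.3%), and this interval takes in the 64.7% of all peaks. With a window of 2000 bp, 15 of 30 were matched (50%, interval 33.2% to 66.8%). Peaks at 3′ ends made up 25% of the genes' flox/flox peaks (interval 16.0% to 36.8%) and 16.9% of their BKO peaks (interval 9.72% to 27.8%). These intervals take in the 21.7% and 19.3% of all peaks, and the genotypes were not tested against each other. Peaks at 5′ ends made up 31.2% of the genes' flox/flox peaks (interval 21.2% to 43.4%) and 30.8% of their BKO peaks (interval 20.9% to 42.8%), against 11.4% and 13.1% of all peaks.

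Overlapping pairs were then compared in strength. There were 44 pairs of a flox/flox and a BKO peak on the same gene. In 22 the flox/flox peak held the higher rank in its list, in 21 the BKO peak did, and in 1 the false discovery rate was given as 0 in both lists, against 46.5% with the higher rank in flox/flox over all 13357 such pairs. Pairs were placed at an end by the middle base of their flox/flox peak alone. At 5′ ends the flox/flox peak ranked higher in 3 of 19 pairs (15.8%, interval 5.52% to 37.6%), against 30.2% of all 5′ pairs, which lies inside that interval. Counted by gene, the BKO peaks ranked higher for 11 of 15 genes (73.3%), near the 69.7% of all 1228 genes with such pairs, and the flox/flox peaks for 3 (*Acadvl*, *Decr1* and *Slc27a1*), with no order for *Pdk4*. The *Acadvl* ranks were nearly equal, 98.0% and 97.9%, and the overlapping peaks of *Etfdh* gave 4 of the 19 pairs. At 3′ ends the flox/flox peak ranked higher in 6 of 6 pairs (interval 61.0% to 100%), against 50.2% of all 3′ pairs, on *Acat1*, *Pex11a*, *Acacb*, *Nudt7*, *Acads* and *Acot13*. With any exonic base within the window it ranked higher in 8 of 9 pairs at 3′ ends, and with a window of 2000 bp in 15 of 17. By fold enrichment in place of the false discovery rate, the flox/flox peak ranked higher in 8 of 19 pairs at 5′ ends (42.1%), near the 41.6% of all 5′ pairs, and in 5 of 6 at 3′ ends, against 56.6% of all 3′ pairs.

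**Figure D2:**
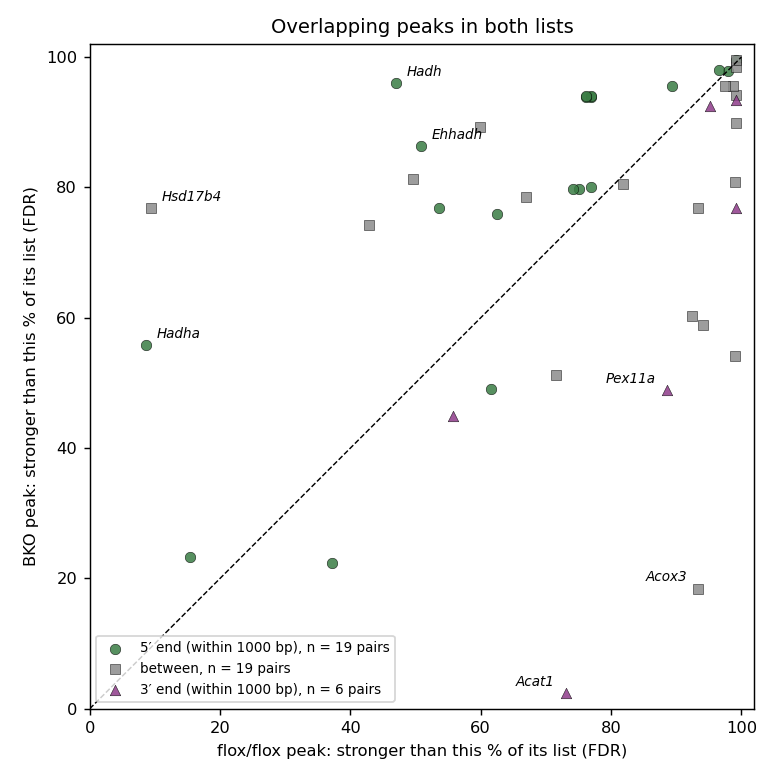
Strength of each overlapping pair, as the percentage of its own list with a weaker false discovery rate (FDR), for the flox/flox peak (horizontal axis) and the BKO peak (vertical axis), with the dashed line where both are equal. The 6 pairs at 3′ ends (triangles) lie below the line, and 15 of the 19 pairs at 5′ ends (circles) lie above it, not counting the *Pdk4* pair given as 0 in both lists.

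Peak length was compared for the same pairs. At 5′ ends the flox/flox peak was longer in 0 of 19 pairs, the pair was of equal length in 9, and the BKO peak was longer in 10. At 3′ ends the flox/flox peak was longer in 6 of 6 pairs, with medians of 388.5 and 208.5 exonic bases. Over all pairs in the lists, the flox/flox peak was longer in 33.8% at 5′ ends and 54.4% at 3′ ends. Summed over the genes, listed peaks covered 20615 exonic bases in flox/flox and 13618 in BKO mice. Over all gene symbols with a peak the lengths summed to 5462974 and 4962830. The 19 genes of the carnitine shuttle, the mitochondrial β-oxidation cycle and electron transfer had 6503 and 6212 bases, with more in flox/flox for 6 of them and more in BKO for 10. The other 20 genes, for peroxisomes, activation, thioesterases and control, had 14112 and 7406 bases, with more in flox/flox for 14 and more in BKO for 5. The split is by role and not by location, since the products of *Acot2* and *Pdk4*, in the second group, are mitochondrial too. These sums and counts move with how much was called in each list. The share of all genes with more bases in either genotype was not computed, so the counts have no whole-list share beside them. The difference between the groups was not tested.

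**Figure D3:**
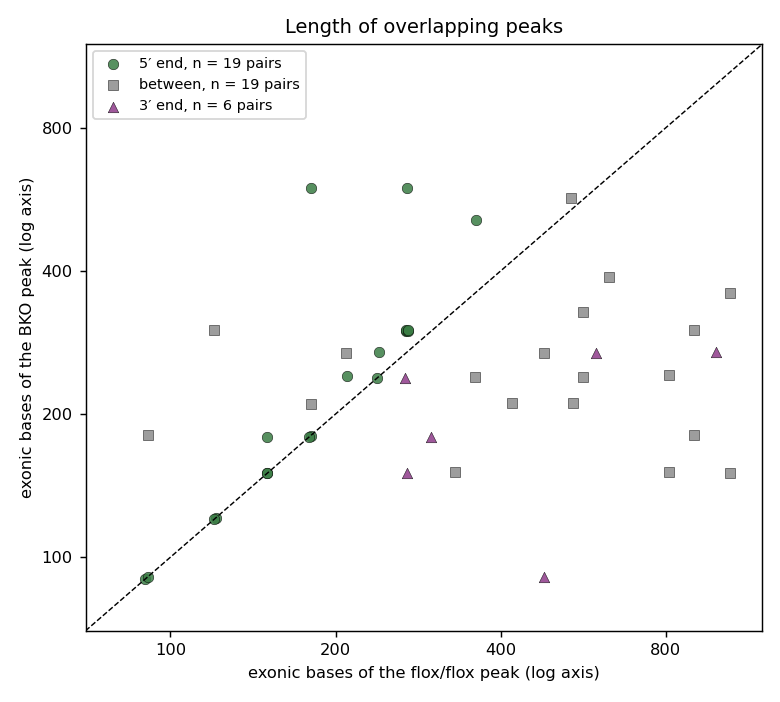
Exonic bases of the flox/flox peak (horizontal, log axis) and of the BKO peak on it (vertical, log axis) for 44 overlapping pairs, with the dashed line at equal length. Pairs at 5′ ends (circles) lie on or above the line, and the 6 pairs at 3′ ends (triangles) lie below it.

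Compared with the rest of their lists, the peaks of these genes were strong by false discovery rate and low by enrichment. Their median fold enrichment was 3.44 in flox/flox, against 6.58 for all peaks, and 2.35 in BKO, against 4.65. Yet 53 of 64 flox/flox peaks and 44 of 65 BKO peaks lay above their list's median in strength. In flox/flox mice this was not particular to these genes. Median fold enrichments there were 3.33 for other pathway genes and 3 for nuclear oxidative phosphorylation genes. They were 3.72 for mitochondrial ribosomal protein genes and 4.27 for brown adipocyte markers. Median strengths of these sets were 68.7%, 71.8%, 74.7% and 72.2%, against 73.6%. Skeletal muscle markers (3.32 and 16.4%) and macrophage markers (8.21 and 57.3%) differed. Fold enrichment is a ratio within 1 genotype, and the 2 lists share no scale.

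**Figure D4:**
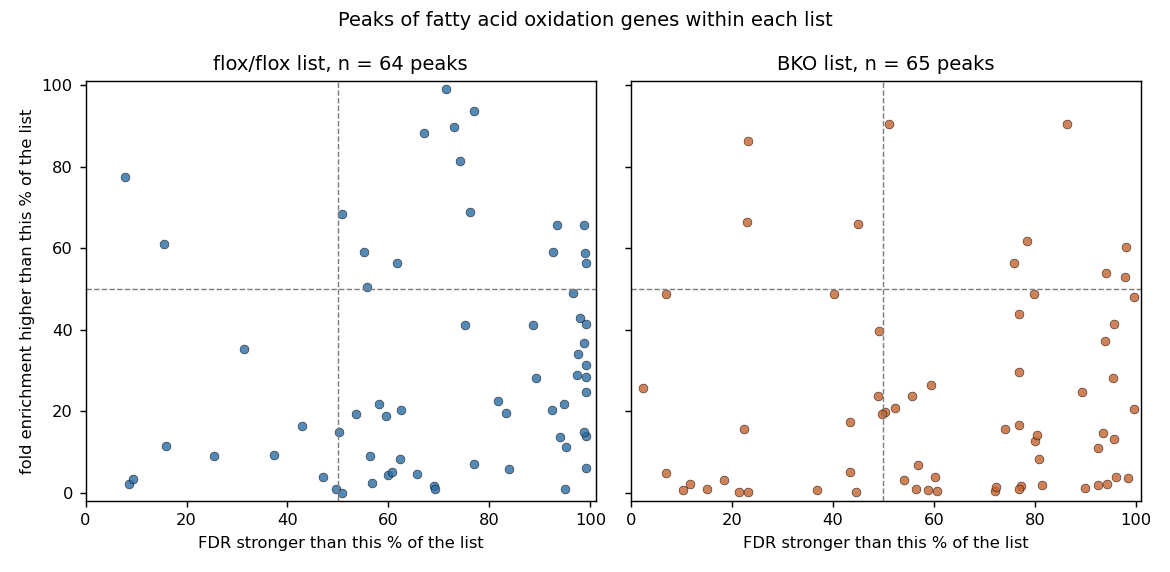
Fold enrichment (vertical axis) against strength by false discovery rate (FDR, horizontal axis) for the 64 flox/flox and 65 BKO peaks, each as the percentage of its own list that lies below. Dashed lines mark the list medians, and most points lie toward the lower right of each panel.

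The carnitine shuttle held peaks at both kinds of position. *Cpt1a*, the outer membrane transferase that controls entry (ENSMUSG00000024900, plus strand of chromosome 19), had 1 flox/flox peak of 538 exonic bases from 3382002 to 3384269, enriched 16.7-fold over input with a log10 FDR of −15.2. The BKO peak on it covered 568 bases, with 6.19 and −18.4. *Cpt1b*, the muscle-type isoform that brown fat also uses, had 2 flox/flox peaks at its 5′ end, and a single BKO peak of 598 bases lay over both. Another listed gene shared bases with the inner of the 2 flox/flox peaks and with the BKO peak, so their assignment to *Cpt1b* is uncertain. *Cpt2*, the inner membrane transferase on the minus strand of chromosome 4, had 3 flox/flox peaks and 1 BKO peak. Its flox/flox peak at the 3′ end, at 107903981 to 107904429, had a log10 FDR of −243, stronger than 98.7% of the list, and no BKO peak lay on it. The shared *Cpt2* peak, from 107907503 to 107908131 in flox/flox, had −149, and the shorter BKO peak within it had −68.4. These were stronger than 97.5% and 95.6% of their lists.

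The 4 acyl-CoA dehydrogenases, which open each turn of the cycle for a given chain length, had peaks in both lists. *Acadvl* (very long chains) had a peak over the same 150 bases, from 70015262 to 70015411 (chromosome 11, minus strand) in both lists, with log10 FDR values of −166 in flox/flox and −110 in BKO mice. *Acadl* (long chains) likewise had a 5′ peak over the same 121 bases in both, with −123 and −117, stronger than 96.6% and 98.1% of their lists. The *Acadl* 5′ peak was the only one in flox/flox mice, while the BKO list held 3 more, and the strongest of these, from 66831228 to 66831407 at the 3′ end, had −47.7 and a fold enrichment of 1.51. The other 2 had −8.90 at the 3′ end and −13.8 between the ends, both with a fold enrichment of 1.30. The 3′ ends of *Acadm* and *Acads* went the other way. *Acadm* (medium chains) had a 3′ flox/flox peak from 153922387 to 153922805 whose false discovery rate was given as 0, and no BKO peak lay on it. Its other flox/flox peaks were matched and weaker, at −7.65 and −11.4, and the BKO peaks on them had −21.1 and −35.0. *Acads* (short chains) had 1 flox/flox peak of 597 bases with the rate given as 0, and 239 of these bases lay under a BKO peak of 269 bases with −52.7.

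The enzymes of the following steps had few peaks. *Hadh*, the short-chain 3-hydroxyacyl-CoA dehydrogenase, had 1 spliced peak reaching its 5′ end in each list. It covered 361 bases with a log10 FDR of −6.95 in flox/flox and 511 bases with −73.1 in BKO mice, 47.0% and 96.0% up their lists. By fold enrichment there was no such difference, with 1.92 and 1.67, higher than only 3.77% and 3.76% of their lists. *Hadha* and *Hadhb*, the α and β subunits of the trifunctional protein, are transcribed away from each other from neighbouring starts on chromosome 5. *Hadha* had a weak 5′ peak over the same 91 bases in both lists, with −2.38 and −7.57, centred 137 bp outside the RefSeq span. At its 3′ end, from 30119414 to 30119714, the flox/flox list held a peak with −91.9 that was unmatched. *Hadhb* had 1 peak, in the BKO list, spliced from its 5′ end, with −8.56. *Acat1*, the acetoacetyl-CoA thiolase, had the 3′ pair with the largest difference in rank. Its flox/flox peak covered 479 bases with a fold enrichment of 18.0 and −19.8, and the BKO peak on it covered 91 bases with 2.87 and −1.82, so it stood above 73.0% of its list in flox/flox and 2.46% in BKO mice.

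Of the isomerases and the reductase that handle unsaturated chains, *Eci1* had 1 flox/flox peak at its 3′ end with a log10 FDR of −7.97 and a fold enrichment of 1.23, and *Eci2* had 1 BKO peak inside the gene with −2.69 and 1.41. *Decr1* had a 5′ peak over the same 180 bases in both, with −12.2 and −6.12. The genes of the electron transfer flavoprotein had a shared 5′ peak each. *Etfa* had 238 identical bases, with −50.0 in flox/flox and −68.7 in BKO mice. *Etfb* had peaks of 90 bases sharing 60, with −24.0 and −19.9. *Etfdh*, which passes the electrons on to ubiquinone, had 2 overlapping 5′ peaks in each list, with −22.9 and −23.8 in flox/flox and −56.4 and −55.1 in BKO mice. The list of its peaks thus counts that region more than once. The fold enrichments of these 5′ *Etfdh* peaks went the other way, with 10.5 and 21.7 in flox/flox and 5.12 and 3.58 in BKO mice. They were higher than 68.9% and 93.6% of the flox/flox list and 53.9% and 37.2% of the BKO list. *Etfa*, *Etfb* and *Etfdh* also had 1, 1 and 3 unmatched BKO peaks, all spliced and with fold enrichments of 1.26 to 1.76. Another listed gene shared bases with that of *Etfb*, so its assignment is uncertain. Those of *Etfdh* had −5.42, −2.40 and −3.11. The same gene had 1 unmatched flox/flox peak at its 3′ end, with −16.8.

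**Figure D5:**
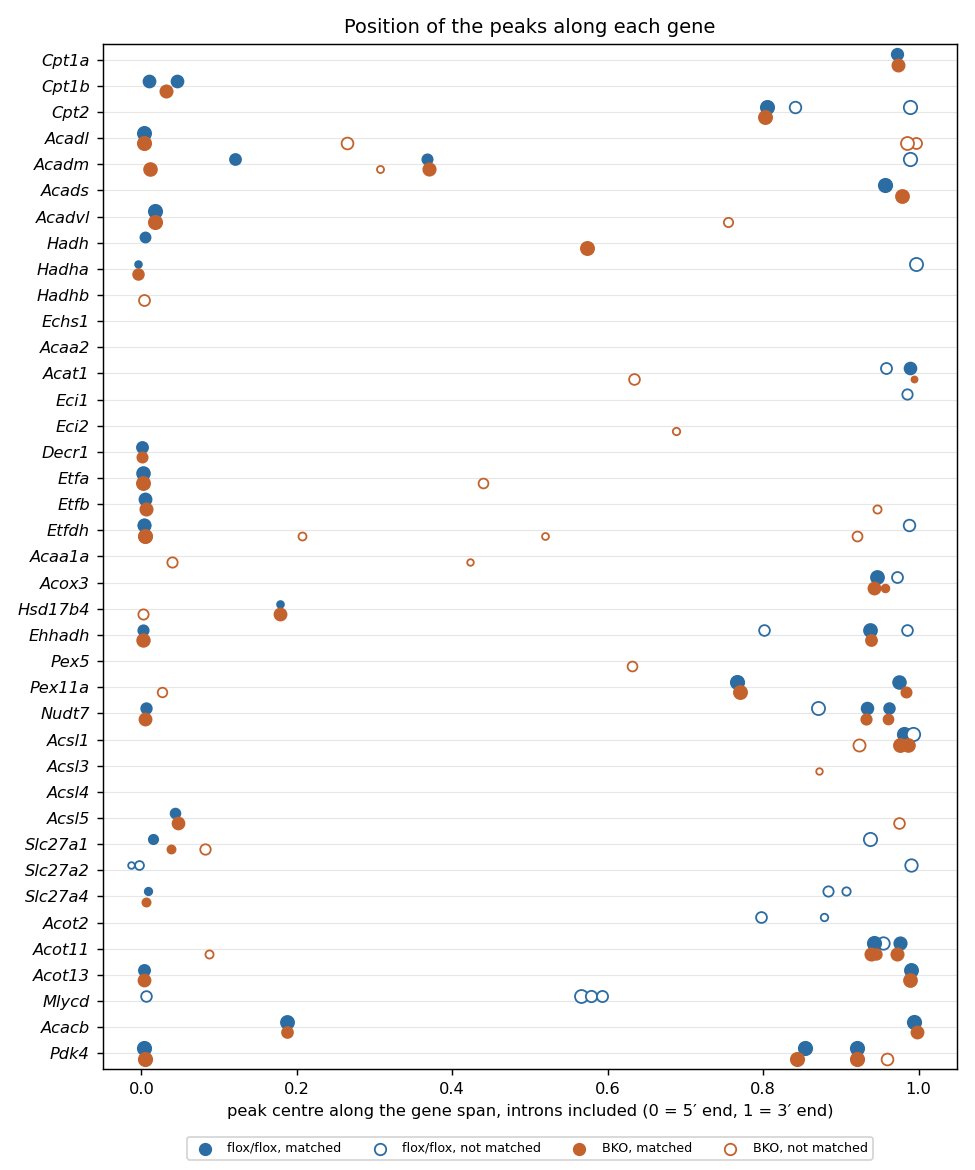
Middle exonic base of every peak as a fraction of the gene span from the 5′ end (0) to the 3′ end (1), introns included, with flox/flox above BKO for each of the 39 genes. Filled circles are matched peaks, open circles are unmatched, and larger circles are stronger within their list. Clusters near 0 are mostly filled in both genotypes, and open flox/flox circles gather near 1. The *Hadh* BKO peak starts in the first exon although its middle base lies at a later exon.

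Peroxisomal genes had 13 flox/flox and 15 BKO peaks. *Acox3*, the oxidase of branched chains, had a flox/flox peak of 899 bases from 35612070 to 35612968 on the plus strand of chromosome 5, enriched 9.72-fold with a log10 FDR of −73.3. In BKO mice 2 shorter peaks lay within it, of 300 and 181 bases, with −16.9 and −2.89. *Ehhadh*, the L-bifunctional enzyme, held both patterns on 1 message. Its 5′ peak covered the same 150 bases in both lists, with −7.96 in flox/flox and −28.4 in BKO mice, while the peak 1675 bp from its 3′ end had −66.2 in flox/flox and −8.81 in BKO mice, and 2 more flox/flox peaks were unmatched, with −10.0 at the 3′ end and −9.82 between the ends. *Nudt7*, a coenzyme A diphosphatase, was alike by FDR alone, with −8.87 and −16.9 at the 5′ end. Its fold enrichments there went the other way, with 3.22 in flox/flox and 2.4 in BKO mice. Of its other flox/flox peaks, that from 114151662 to 114152349 had −90.3 and no match, and that from 114153126 to 114153544 had the highest fold enrichment of the whole set, 46.5, against 15.5 for the BKO peak on it. The 3′ pair of *Nudt7* had −9.62 in flox/flox and −5.48 in BKO mice, with fold enrichments of 6.66 and 6.98.

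*Pex11a*, a factor of peroxisome division, had 2 matched peaks toward its 3′ end. The stronger, 566 bases in flox/flox and 328 in BKO mice, had −235 and −67.8, stronger than 98.7% and 95.5% of their lists. The other had −47.0 and −6.10, stronger than 88.5% and 48.9%. *Hsd17b4*, the D-bifunctional enzyme, was the pair with the largest difference in favour of BKO mice. The flox/flox peak of 120 bases had −2.47, stronger than 9.40% of its list, and the BKO peak on it had 300 bases and −17.0, stronger than 76.8%. *Acaa1a*, the peroxisomal thiolase, and *Pex5*, the import receptor, had BKO peaks alone, with −6.36 and −2.19 for *Acaa1a* and −5.26 for *Pex5*. *Acaa1b*, the near-identical paralog of *Acaa1a*, had 1 peak, in the flox/flox list, so reads of the 2 paralogs may have been divided between them.

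Among the activation and uptake genes, *Acsl1*, the main long-chain synthetase of adipocytes, had the strongest peaks. Its flox/flox peak from 46533611 to 46535362 on the plus strand of chromosome 8 covered 1049 exonic bases, and its false discovery rate was given as 0. Within it the BKO list held peaks of 360 and 150 bases, with log10 FDR values of −57.9 and −36.7 and fold enrichments of 1.55 and 1.42, against 5.4. A second flox/flox peak, from 46535452 to 46535692, 479 bp from the 3′ end, had −247 and was unmatched. *Acsl5* had 1 flox/flox peak near its start, with −6.02, and the BKO peak on it had −15.1. *Acsl3* had a single weak BKO peak, with −2.18.

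The fatty acid transport proteins encoded by *Slc27a1*, *Slc27a2* and *Slc27a4* had 8 flox/flox and 3 BKO peaks. *Slc27a1* had a flox/flox peak from 71585986 to 71586285, 1171 bp from the 3′ end, with −142 and no match. *Slc27a2* had 3 unmatched flox/flox peaks, the strongest of them at its 3′ end with −34.8, and the other 2, with −2.37 and −4.28, were centred upstream of its RefSeq start. *Slc27a4* had a matched 5′ peak, with −2.90 and −3.24, and 2 unmatched flox/flox peaks toward the 3′ end, with −7.82 and −3.69.

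Thioesterases, which release fatty acids from coenzyme A, had 7 flox/flox and 6 BKO peaks. *Acot11*, the thioesterase abundant in brown fat, had 3 flox/flox peaks toward its 3′ end (chromosome 4, minus strand). The strongest, from 106747612 to 106748422, had a log10 FDR of −266 and a fold enrichment of 8.07, and the 2 BKO peaks within it had −7.18 and −20.6. The others had −30.7, with a BKO peak of −20.3 on it, and −33.7, with none. These 3 flox/flox peaks and the BKO peaks on them also lay over listed peaks of the opposite strand, and strand-specific counting is not described, so reads of both genes cannot be told apart there. *Acot13* had a 5′ and a 3′ peak matched in both lists. At its 5′ end it had −12.6 in flox/flox and −16.2 in BKO mice, stronger than 62.5% and 75.8% of their lists. At its 3′ end it had −94.8 and −47.4, stronger than 95.2% and 92.5%. *Acot2*, the mitochondrial matrix thioesterase, had 2 flox/flox peaks and none in the BKO list, with −10.6 and −2.91. It has near-identical paralogs next to it.

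The 3 control genes set the balance between fat synthesis, fat oxidation and glucose oxidation. *Acacb* makes the malonyl-CoA that inhibits CPT1, and *Mlycd* removes it. *Acacb* had a flox/flox peak of 988 bases at its 3′ end, from 114249684 to 114250671 on the plus strand of chromosome 5, with the false discovery rate given as 0, and the BKO peak within it had 270 bases and a log10 rate of −16.9. Its internal peak had −80.4 in flox/flox and −8.39 in BKO mice. *Mlycd* had 4 flox/flox peaks and no BKO peak. The strongest, from 119409993 to 119410233, had −67.6 and a fold enrichment of 8.21, and the others had −9.42 at the 5′ end, −14.3 and −12.5. *Pdk4*, the kinase that shuts off pyruvate dehydrogenase when fat is burned, was the only gene of the set with the FDR given as 0 for BKO peaks. In the flox/flox list *Acadm*, *Acads*, *Acsl1* and *Acacb* also had such peaks. At its 5′ end the rate was given as 0 in both lists, with fold enrichments of 4.01 and 4.46. Its peak of 209 bases near 5484273 had −317 in flox/flox and was given as 0 in BKO mice, while the neighbouring peak from 5484957 to 5485522 was given as 0 in flox/flox and had −131 in BKO mice, with fold enrichments of 7.57 and 1.66.

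The remaining unmatched peaks were all below the strongest 20% of their list. In flox/flox mice they included the second *Acat1* peak, 1253 bp from the 3′ end (log10 FDR −11.7), a *Cpt2* peak between the others (−16.6) and an *Acox3* peak 851 bp from the 3′ end (−11.2). In BKO mice several lay at or near gene starts, on *Hsd17b4* (−6.23), *Pex11a* (−4.82) and *Slc27a1* (−6.76, 1526 bp from the start). Others lay further along, on *Acsl1* (−17.3), *Pdk4* (−14.0), *Acsl5* (−7.83), *Acat1* (−7.75), *Acadvl* (−4.42), *Acot11* (−3.22) and *Acadm* (−2.50). This *Acadvl* peak also lay over a listed peak of the opposite strand, so its assignment is uncertain.

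The other genes of the pathway were taken from a list of 69, of which 48 had a peak. Peaks in both lists were found for 32, in flox/flox mice alone for 12 (25%, against 15% of all genes with a peak) and in BKO mice alone for 4 (8.33%, against 14.9%). Among the strongest of these by FDR with peaks in 1 list alone were *Acsf3*, an acyl-CoA synthetase (log10 FDR −38.9), *Acss1*, a mitochondrial acetyl-CoA synthetase (−37.3), *Acaa1b* (−15.2) and *Acad8*, an acyl-CoA dehydrogenase of valine breakdown (−13.0), all in flox/flox mice, and *Scp2*, a sterol carrier with thiolase activity (−11.4), in BKO mice. The other 3 genes with BKO peaks alone were *Acsf2*, *Hsd17b10* and *Hacl1*, named here after their values were seen. Of the flox/flox peaks on the whole list of other pathway genes, 53.2% were matched, against 60.9% for the genes described above and 67.8% of all flox/flox peaks. Nuclear genes of oxidative phosphorylation had 55 flox/flox and 64 BKO peaks with summed lengths of 11236 and 13794 bases. Mitochondrial ribosomal protein genes had 81 and 56 peaks with summed lengths of 23537 and 11215 bases. No test of these differences was made.

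Listed peaks were also counted on markers of brown adipocytes, skeletal muscle and macrophages. Skeletal muscle is not among the iBAT cell types that the paper names. All 18 brown adipocyte markers had a peak in at least 1 list, with 48 flox/flox and 41 BKO peaks. Of these markers 6 had more peaks in flox/flox, 5 had more in BKO and 7 had equal numbers. Of 20 skeletal muscle markers, 16 had a peak, 7 in both lists, 9 in BKO mice alone and 0 in flox/flox mice alone, with 7 and 24 peaks. Of 15 macrophage markers, 14 had a peak, 9 in both and 5 in BKO mice alone, with 16 and 31 peaks. Over all genes with a peak, 14.9% had peaks in the BKO list alone and 15% in the flox/flox list alone. Fatty acid oxidation genes are also expressed in muscle, and the part of these cell types in the peaks above was not tested. In bulk tissue, fewer cells of a type and less RNA per cell cannot be told apart, and a peak list holds no transcript levels.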

How the data were processed

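The m6A peaks were called by the authors within each genotype, 1 pooled IP against 1 pooled input. The methods name MACS2, but the lists have the layout of spliced peaks on annotated genes that exomePeak writes, so which caller gave the FDR and fold values is unsettled. The submitters' processing notes name fastp 0.19.11, BWA 0.7.12, HOMER 4.9.1 and GRCm38.p6. Each peak has a deposited p-value. Log10 versions of this p-value and of its FDR are also given, and were treated as scores deposited with the list. How the authors scaled their fold enrichment, a ratio of IP to input, is not described. Positions and exonic blocks are as the authors gave them, with starts counted from 1.

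Lists were tied to genotypes by the prefix they share with the sample titles. Peaks were matched in Python 3.11.15 with pandas 2.3.3 and scipy 1.17.1, and the matching was tested on simulated data. Gene ends came from RefSeq (GRCm38.p6), in which all 39 genes were found by symbol, and 61 of 64 flox/flox and 64 of 65 BKO peaks had their middle base inside the gene. Every gene was named, with those having peaks in 1 list, 3 or more peaks, the smallest rates or the largest rank differences in full. The genes and lists were chosen with earlier results of these data known. No genome was used, so no sequence or motif is given. No test between genotypes was made, and no replicate could be left out. A gene of the wider pathway list that the naming rule takes is not reported here.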

Additional observations from a re-analysis of the deposited data

How the results depend on the processing

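Over 14 results, 46 of 55 alternative values stayed within the interval of the reported share or within 1.5 times the reported count, and 9 moved. Asking for any peak of the same gene raised the matched share of flox/flox peaks to 84.4% and of BKO peaks to 90.8%, and lowered the genes with an unmatched peak to 4 and 5. Asking for 50% of the bases lowered the matched flox/flox share to 48.4%. With peaks under a false discovery rate of 1e-05 searched for among all peaks, 12 genes had an unmatched BKO peak. With a window of 2000 bp, 46.9% of flox/flox and 35.4% of BKO peaks lay at 3′ ends. Ranked by fold enrichment, the flox/flox peak was higher in 42.1% of 5′ pairs. Settings that split results by the end of the gene were chosen after seeing the data. No paired analysis was possible because each genotype has 1 pool.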
